A study of Komagataella phaffii with 15 samples.

Results

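Methylotrophic yeasts such as *Komagataella phaffii* burn and build biomass from methanol through a short set of strongly expressed enzymes. Alcohol oxidase turns methanol into formaldehyde and hydrogen peroxide inside the peroxisome, catalase removes the peroxide, dihydroxyacetone synthase joins formaldehyde to a sugar phosphate for assimilation, and formaldehyde and formate dehydrogenases carry the remainder to carbon dioxide with a gain of NADH. The genes are known for tight repression in excess glucose and for high expression on methanol, and the *AOX1* promoter is the standard promoter for protein production in this yeast. Here 7 of these genes were followed in cells that were fed with glucose as the limiting nutrient, out of 5341 annotated transcripts. They were chosen by identifier, one by one, for their place in the pathway and with earlier results of these data known. Counts of the 7 genes set beside shares of all genes are therefore descriptive. The genes are the alcohol oxidases *AOX1* (PP7435_Chr4-0130) and *AOX2* (PP7435_Chr4-0863), the catalase *CTA1* (PP7435_Chr2-0137), the dihydroxyacetone synthases *DAS1* (PP7435_Chr3-0352) and *DAS2* (PP7435_Chr3-0350), the formaldehyde dehydrogenase *FLD1* (PP7435_Chr3-0140) and the formate dehydrogenase *FDH1* (PP7435_Chr3-0238).

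RNA-Seq of poly-A RNA covered 15 libraries from glucose-limited chemostats of *K. phaffii* CBS7435, in 5 samples with 3 biological replicates apiece. The *flo8Δ* strain, in which part of the promoter and the start of the reading frame of the putative regulator gene *FLO8* (PP7435_Chr4-0252) were removed, was sampled at S1, after 5 residence times at a growth rate of 0.1 per h, and at S3, after 5 residence times at 0.05 per h. The wild-type strain was sampled at S1 and S3 in the same way and also at S5, after the return to 0.1 per h. Both strains grew on the same glucose medium without methanol, the mutant is a single strain, and a chemostat run went through S1, S3 and S5 one after the other, so libraries of 1 strain may stem from shared cultures.

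Between 4163342 and 10843287 reads lay behind a library, and the libraries with the fewest were *flo8Δ* S1 replicate 2 and wild-type S1 replicate 3. Every one of the 7 genes had at least 635 reads in every library and passed the filter on low values. Levels are given as TPM, the share of a transcript in its library scaled for transcript length. Differences are log2 fold changes of the deposited normalized counts with their standard errors (SE), tested by limma with Benjamini-Hochberg adjustment over all genes, and a gene was called higher or lower at an adjusted p under 0.05, with a log2 fold change beyond 1 as the second, stricter threshold. *FLO8* itself had 28.2 ± 3.88 TPM in the *flo8Δ* strain and 36.2 ± 3.20 TPM in the wild type, both at S1 (SD, n = 3 each). The deletion leaves most of its transcript in place, so its level was no firm check of the strain labels (log2 fold change -0.27, adjusted p = 0.10 from limma). The comparisons below share libraries with each other, so they are not independent of one another. Where groups of libraries are said not to overlap, the share of all genes separated in this way was not counted. With 3 libraries against 3, a gene without any difference would be separated in either direction with a probability of 0.1.

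All 7 genes were transcribed in every sample, at levels that spread over more than an order of magnitude. *FDH1* and *CTA1* stood at the top of the group, with sample means between 925 and 1964 TPM for *FDH1* and between 990 and 1464 TPM for *CTA1*, where the actin gene *ACT1* had means between 1484 and 1727 TPM. *FLD1* followed with means between 465 and 537 TPM. *AOX1*, known as the gene of the main alcohol oxidase on methanol, had means between 206 and 646 TPM, below those of *FLD1* in all 3 wild-type samples and above them in both *flo8Δ* samples. In wild-type S5 replicate 3, however, *AOX1* had 614 TPM and *FLD1* 588 TPM. *AOX2*, *DAS1* and *DAS2* were the lowest, with means between 50.1 and 215 TPM. *AOX2* and *DAS2* ranked 2147 and 2761 among all transcripts by mean level in wild-type S1, while *CTA1* ranked 129 and *FDH1* ranked 197.

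**Figure D1:**
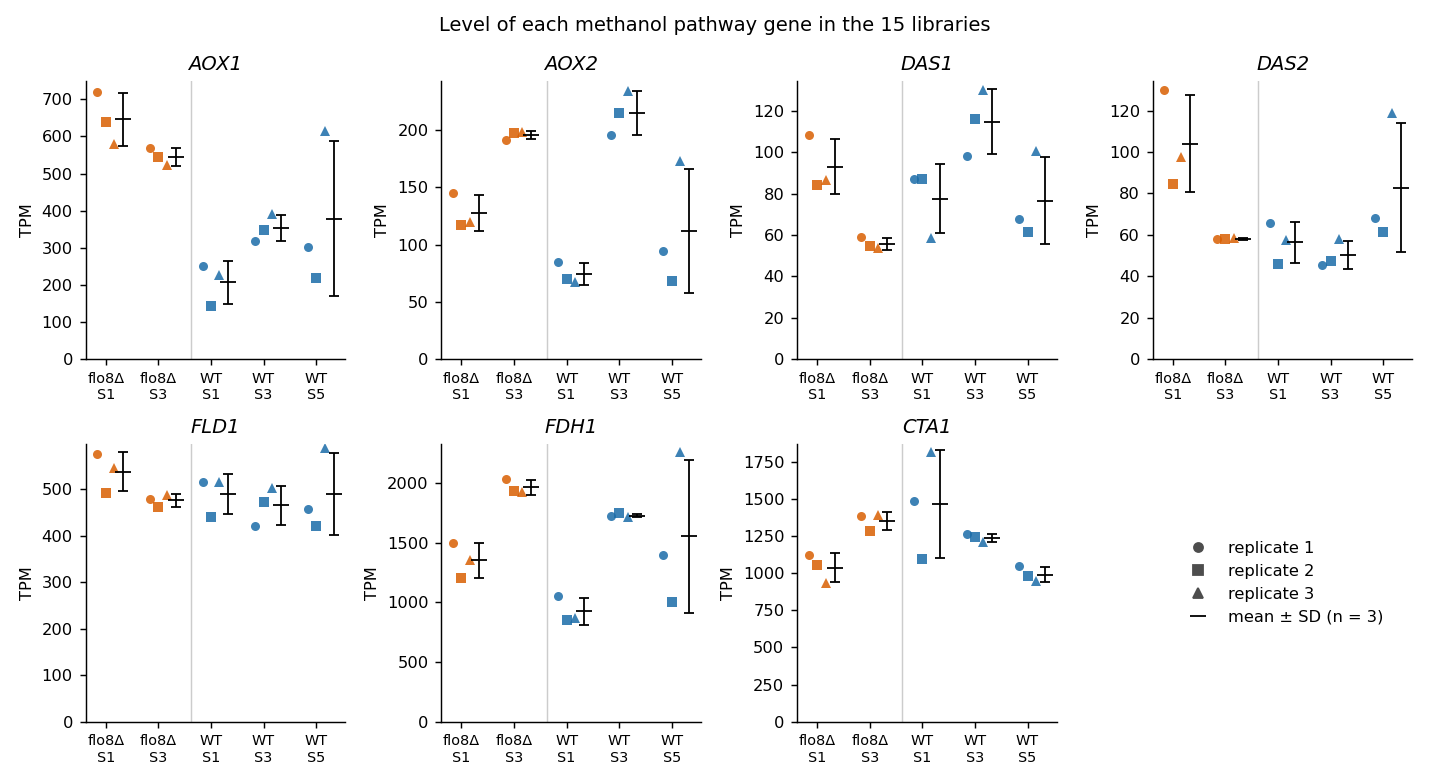
TPM (linear axis from 0) of each gene in the 15 libraries, with one point per library shaped by replicate number, *flo8Δ* samples in orange left of the wild-type samples in blue, and the mean ± SD (n = 3) beside the points. *AOX1* reached 720 TPM in *flo8Δ* S1 and went no lower than 142 TPM, in wild-type S1, and the replicates of wild-type S5 lay far apart for *AOX1*, *AOX2*, *DAS2* and *FDH1*.

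The order of the genes was not the same in all samples. *FDH1* came first and *CTA1* next in both *flo8Δ* samples and in wild-type S3, and their replicates did not overlap there. In wild-type S1 the order of the top pair was the other way round, with 1094 to 1814 TPM for *CTA1* and 855 to 1053 TPM for *FDH1*. At the low end, *DAS1* and *AOX2* overlapped in wild-type S1, and *DAS2* and *DAS1* overlapped in both *flo8Δ* samples and in wild-type S5. *AOX2* and *DAS2* overlapped in *flo8Δ* S1 and in wild-type S5. In wild-type S5 *FDH1* overlapped with *CTA1*, and *FLD1* with *AOX1*, as well. Only in wild-type S3 were all 7 genes separated from their neighbours in the order without overlap. Summed over the 7 genes, the levels came to 3898 ± 353 TPM in *flo8Δ* S1 and 4646 ± 124 TPM in *flo8Δ* S3, and to 3293 ± 486, 4163 ± 89.2 and 3682 ± 1015 TPM in wild-type S1, S3 and S5 (SD, n = 3 each). *FDH1* and *CTA1* made up most of these sums.

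At fast growth, the strains differed most in the first step of the pathway. *AOX1* had 720, 638 and 579 TPM in the *flo8Δ* libraries at S1, against 251, 142 and 226 TPM in the wild-type libraries. Every mutant library thus lay far above every wild-type library. *AOX1* was higher in *flo8Δ* by a log2 fold change of 1.77 (SE 0.17, adjusted p = 0.00023, limma), a 3.42-fold difference with a 95% interval of 2.63 to 4.45, and it ranked 5 from the top among the 5306 genes tested. The second alcohol oxidase gene, *AOX2*, had 145, 117 and 120 TPM in *flo8Δ* and 85.0, 69.7 and 67.1 TPM in the wild type. It moved in the same direction without overlap, by 0.88 (SE 0.11, adjusted p = 0.00099, limma).

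Of the genes for the later steps, *DAS2* and *FDH1* also rose in the mutant at S1. *DAS2*, one of the dihydroxyacetone synthase genes, had 130, 84.4 and 97.8 TPM in *flo8Δ* and 65.8, 45.8 and 57.3 TPM in the wild type, a log2 fold change of 0.97 (SE 0.15, adjusted p = 0.0024, limma). *FDH1*, for the last oxidation to carbon dioxide, had 1502, 1205 and 1354 TPM in *flo8Δ* and 1053, 855 and 867 TPM in the wild type, a log2 fold change of 0.64 (SE 0.11, adjusted p = 0.0038, limma). In both genes every mutant library exceeded every wild-type library, but how many of all genes did so was not counted. For *DAS1* (0.37, adjusted p = 0.16), *FLD1* (0.23, adjusted p = 0.052) and the catalase gene *CTA1* (-0.38, adjusted p = 0.076) the limma test was not passed.

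Thus 4 of the 7 genes were higher in *flo8Δ* at S1, where 15.1% of all genes tested were, and 0 were lower, where 15.7% of all genes were. At an unadjusted p under 0.05 from limma *CTA1* was the only lower one of the 7, where 2263 of 5306 genes passed in either direction. DESeq2 called it lower as well, beside 840 genes lower in all, and edgeR called none of the 7 lower. The stricter threshold was passed by *AOX1* alone, and by 3.19% of all genes. The median log2 fold change was 0.64 over the 7 genes and 0.00 over all genes. Without wild-type S1 replicate 2, which was the lowest wild-type library for *AOX1* and 4 others of the 7 genes, *DAS1* was called higher (0.51, adjusted p = 0.041 from limma) and *CTA1* lower (-0.53, adjusted p = 0.0048 from limma). Without wild-type S1 replicate 3, *FLD1* was called higher (0.23, adjusted p = 0.048 from limma), and the stricter threshold was passed by 2 genes without wild-type S1 replicate 1 or *flo8Δ* S1 replicate 2.

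At slow growth the strain difference in *AOX1* was smaller, and the largest difference was that of *DAS1*, in the other direction. *DAS1* had 59.0, 54.5 and 53.8 TPM in the *flo8Δ* libraries at S3, against 98.4, 116 and 130 TPM in the wild-type libraries. The mutant libraries lay close together, well under the lowest wild-type library. *DAS1* was lower in *flo8Δ* by a log2 fold change of -1.09 (SE 0.09, adjusted p = 6.8e-07, limma). *AOX1* had 569, 544 and 522 TPM in *flo8Δ* and 319, 348 and 390 TPM in the wild type, again without overlap, and was higher by 0.57 (SE 0.08, adjusted p = 8.9e-05, limma).

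The other genes differed little between the strains at S3. *AOX2* had 192, 197 and 199 TPM in *flo8Δ* and 195, 215 and 234 TPM in the wild type, a small difference of -0.19 that passed the test (SE 0.06, adjusted p = 0.025, limma), beside -0.17 for *ACT1* (adjusted p = 0.047). *DAS2* (0.16), *FLD1* (-0.02), *FDH1* (0.12) and *CTA1* (0.07) did not pass, with adjusted p between 0.10 and 0.76 from limma. The 95% intervals of these log2 differences ran from -0.01 to 0.33 for *DAS2*, from -0.16 to 0.11 for *FLD1*, from -0.04 to 0.29 for *FDH1* and from -0.09 to 0.23 for *CTA1*.

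At S3, then, 1 of the 7 genes was higher in *flo8Δ*, where 25.8% of all genes tested were, and 2 were lower, where 27.5% of all genes were. Only *DAS1* passed the stricter threshold, as did 4.22% of all genes. The median log2 fold change was 0.07 over the 7 genes and 0.00 over all genes. The call of *AOX2* was lost without any one of wild-type S3 replicates 2 and 3 and *flo8Δ* S3 replicates 1 and 3 (adjusted p between 0.056 and 0.099 from limma), and *DAS2* was called higher once wild-type S3 replicate 3 was left out (0.25, adjusted p = 0.0054, limma). In a single limma fit of all 15 libraries, *AOX1* (0.57, adjusted p = 0.067) and *AOX2* (-0.19, adjusted p = 0.47) were not called.

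**Figure D2:**
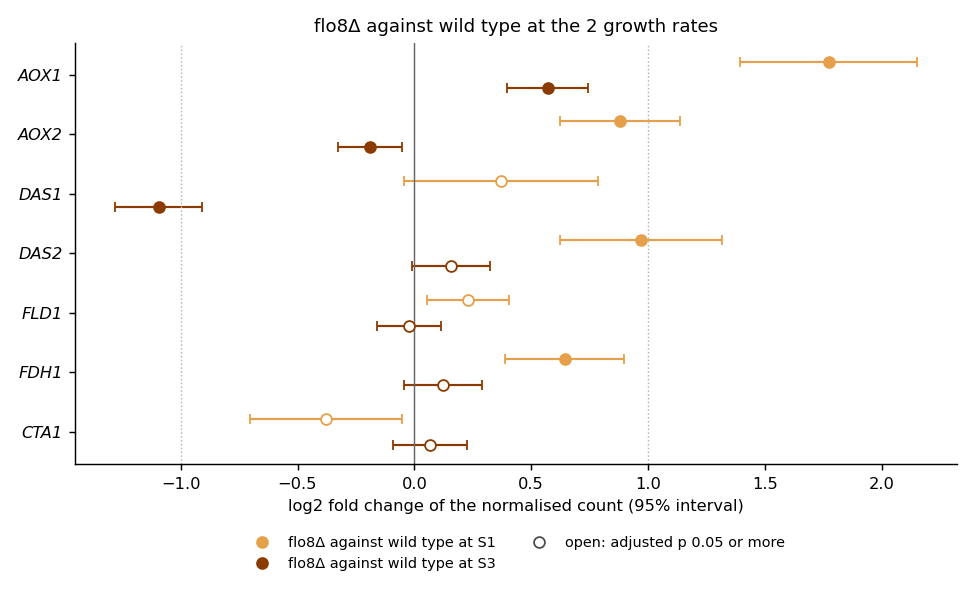
Log2 fold change of the normalized count in *flo8Δ* against the wild type (x axis) for each gene, at S1 in light and at S3 in dark orange, with 95% intervals from limma and dotted lines at -1 and 1. Filled points have an adjusted p under 0.05. *AOX1* lay at 1.77 at S1 and 0.57 at S3, and *DAS1* at 0.37 and -1.09.

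Between S1 and S3 the pathway genes of the mutant moved in opposite directions. S3 came after S1 in a run and the mutant had no S5 library, so growth rate and time in culture cannot be told apart here. In *flo8Δ*, both dihydroxyacetone synthase genes fell. *DAS2* had 57.8, 57.9 and 58.4 TPM at S3, against 130, 84.4 and 97.8 TPM at S1, a log2 fold change of -0.93 (SE 0.11, adjusted p = 0.00010, limma). The S3 replicates were almost level with each other, whereas those of S1 spread widely above them. *DAS1* had 59.0, 54.5 and 53.8 TPM at S3, against 109, 84.1 and 86.7 TPM at S1, and changed by -0.85 (SE 0.08, adjusted p = 4.1e-05, limma). *AOX1* fell less, with a log2 fold change of -0.36 (SE 0.08, adjusted p = 0.0069), as did *FLD1*, with -0.29 (SE 0.06, adjusted p = 0.0046, both from limma). *ACT1* had a log2 fold change of similar size in the same comparison, with -0.32 (adjusted p = 0.0040, limma). The TPM of *AOX1* divided by that of *ACT1* in the same library averaged 0.368 at S3 and 0.378 at S1, and that of *FLD1* averaged 0.321 at S3 and 0.315 at S1.

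The other 3 genes rose in the mutant at slow growth. *AOX2* had 192, 197 and 199 TPM in *flo8Δ* at S3, against 145, 117 and 120 TPM at S1, a log2 fold change of 0.51 (SE 0.07, adjusted p = 0.00033, limma). *FDH1* had 2035, 1934 and 1924 TPM at S3, against 1502, 1205 and 1354 TPM at S1, and rose by 0.43 (SE 0.09, adjusted p = 0.0029, limma). The replicates of the growth rates did not overlap for either gene. *CTA1* rose by 0.27 (SE 0.08, adjusted p = 0.018, limma), with 1385, 1282 and 1387 TPM at S3, against 1124, 1054 and 931 TPM at S1.

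In the mutant 3 of the 7 genes were therefore higher at S3, beside 14.7% of all genes tested, and 4 were lower, beside 16.8% of all genes. None passed the stricter threshold by limma, edgeR or DESeq2, and by limma 0.546% of all genes did. Without *flo8Δ* S1 replicate 2, *DAS2* passed it (-1.07). The call of *CTA1* was lost without *flo8Δ* S3 replicate 1 (0.25, adjusted p = 0.057) or *flo8Δ* S1 replicate 3 (0.21, adjusted p = 0.095, both from limma), and that of *FLD1* on the scale of log2(TPM + 1) (-0.17, adjusted p = 0.11 from limma), where the median of all genes stood at 0.11. In the limma fit of all 15 libraries the calls of *AOX1* (adjusted p = 0.34), *AOX2* (0.070), *FDH1* (0.084) and *CTA1* (0.11) were lost.

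In the wild-type strain, transcript levels of both alcohol oxidase genes, of *FDH1* and of *DAS1* were higher at S3 than at S1. S3 came after S1 here too, so growth rate and time in culture cannot be told apart in this comparison. At S5 against S3, *AOX1* (0.04, adjusted p = 0.92) and *FDH1* (-0.16, adjusted p = 0.59, both from limma) were not called. *AOX2* had 195, 215 and 234 TPM at S3, against 85.0, 69.7 and 67.1 TPM at S1. The lowest S3 library stood far above the highest S1 library, and *AOX2* rose by 1.57 (SE 0.11, adjusted p = 0.00043, limma), a 2.97-fold difference with a 95% interval of 2.49 to 3.54. *FDH1* had 1724, 1747 and 1717 TPM at S3, against 1053, 855 and 867 TPM at S1, and rose by 0.94 (SE 0.11, adjusted p = 0.0012, limma).

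*AOX1* and *DAS1* rose less firmly in the wild type. *AOX1* had 319, 348 and 390 TPM at S3, against 251, 142 and 226 TPM at S1, a log2 fold change of 0.84 (SE 0.17, adjusted p = 0.0083, limma). *DAS1* had 98.4, 116 and 130 TPM at S3, against 87.2, 87.2 and 58.5 TPM at S1, and rose by 0.61 (SE 0.19, adjusted p = 0.041, limma). Its groups did not overlap, but the gap between them was narrow. *DAS2* (-0.13), *FLD1* (-0.05) and *CTA1* (-0.19) did not pass, with adjusted p between 0.34 and 0.68 from limma.

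In the wild type 4 of the 7 genes were thus higher at S3, beside 16.1% of all genes tested, and 0 were lower, beside 16.7% of all genes. At an unadjusted p under 0.05 from limma none of the 7 was lower either, where 2387 of 5310 genes passed in either direction. None was lower by edgeR or DESeq2. The stricter threshold was passed by *AOX2* and by 1.43% of all genes, and the median log2 fold change was 0.61 over the 7 genes and 0.01 over all genes. The call of *DAS1* was lost without any one of the 3 wild-type S3 libraries or wild-type S1 replicate 1 (adjusted p between 0.065 and 0.13 from limma). Without wild-type S1 replicate 3, its lowest S1 library, the rise of *DAS1* was 0.37 (adjusted p = 0.010 from limma). Without wild-type S1 replicate 2 *CTA1* was called lower (-0.33, adjusted p = 0.036 from limma), and without wild-type S1 replicate 1 the stricter threshold was passed by 2 genes.

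**Figure D3:**
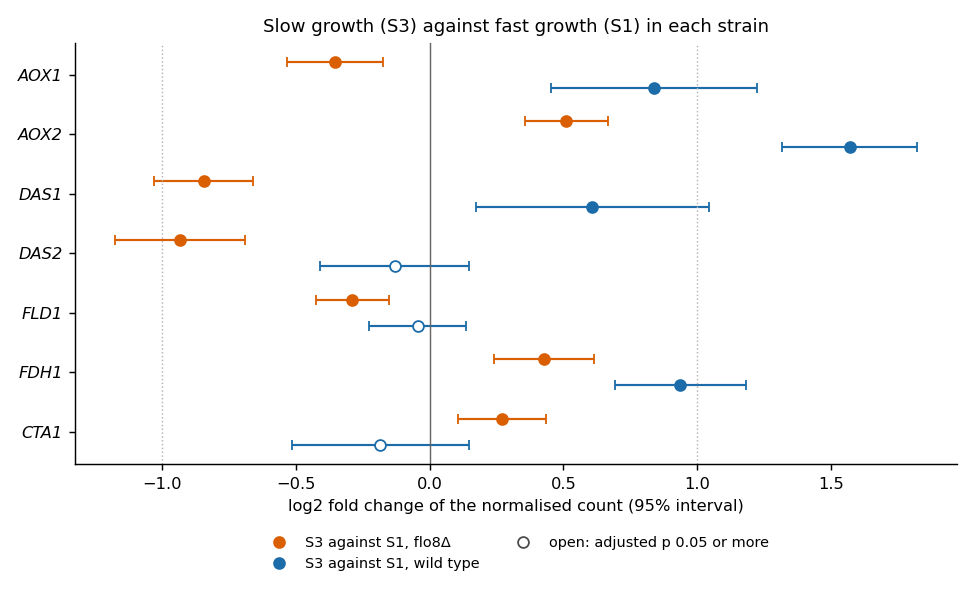
Log2 fold change of the normalized count at S3 (0.05 per h) against S1 (0.1 per h) for each gene (x axis), in *flo8Δ* in orange and in the wild type in blue, with 95% intervals from limma and dotted lines at -1 and 1. Filled points have an adjusted p under 0.05. *AOX1* lay at -0.36 in *flo8Δ* and 0.84 in the wild type, and *DAS1* at -0.85 and 0.61.

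The change from S1 to S3, called the response below, differed between the strains in most of these genes. It was tested by the interaction of strain and sampling point over 12 libraries. The response does not separate growth rate from time in culture, since S3 came after S1 in both strains. The interaction is the change at S3 against S1 in *flo8Δ* less the change in the wild type. *DAS1* had the largest value, with -1.46 (SE 0.23, adjusted p = 0.0043, limma), followed by *AOX1* with -1.20 (SE 0.20, adjusted p = 0.0069) and *AOX2* with -1.07 (SE 0.14, adjusted p = 0.0011). *DAS1* and *AOX1* rose in the wild type and fell in *flo8Δ*, whereas *AOX2* rose in both strains, less in the mutant. *DAS2* had -0.81 (SE 0.19, adjusted p = 0.029, limma) and *FDH1* -0.52 (SE 0.14, adjusted p = 0.046, limma).

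*FLD1* (-0.25, adjusted p = 0.13) and *CTA1* (0.45, adjusted p = 0.12) did not pass limma's interaction test. So 5 of the 7 genes had a lower response in *flo8Δ*, a sign found in 2.99% of all genes tested, and 0 a higher one, found in 2.30% of all genes. At an unadjusted p under 0.05 from limma *CTA1* was the one gene of the 7 with a higher response, where 1372 of 5315 genes passed in either direction. DESeq2 called it, beside 229 genes higher and 239 lower in all, and edgeR did not. *AOX1*, *AOX2* and *DAS1* passed the stricter threshold, as did 0.546% of all genes. By limma, only 2 of the 7 passed it without wild-type S1 replicate 3, without *flo8Δ* S1 replicate 1 or on the scale of log2(TPM + 1). At adjusted p alone, edgeR with TMM called 4 of the 7 lower. The median was -0.81 over the 7 genes and -0.01 over all genes. The counts behind these shares of all genes, 159 with a lower and 122 with a higher response, came to 634 and 439 without wild-type S1 replicate 2 and to 36 and 31 without wild-type S3 replicate 2.

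*AOX1*, *AOX2* and *DAS1* kept their interaction call with each of the 12 libraries left out in turn (adjusted p at most 0.025, 0.0055 and 0.017). *DAS2* lost it without any one of the 3 *flo8Δ* S3 libraries, *flo8Δ* S1 replicate 3 or wild-type S3 replicates 2 and 3 (adjusted p between 0.054 and 0.073), and *FDH1* lost it without any one of the 6 S3 libraries, *flo8Δ* S1 replicates 1 and 3 or wild-type S1 replicate 3 (adjusted p between 0.059 and 0.11, all from limma). Without wild-type S1 replicate 2 *CTA1* had a higher response in *flo8Δ* (0.60, adjusted p = 0.0061 from limma). In the limma fit of all 15 libraries *DAS1* alone kept its call, with adjusted p of 0.064 for *AOX1* and 0.0501 for *AOX2*.

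Return to fast growth was sampled in the wild type only. *AOX2* had 94.8, 68.1 and 173 TPM at S5, against 195, 215 and 234 TPM at S3. All S5 libraries lay below all S3 libraries, and *AOX2* fell by 0.97 on the log2 scale (SE 0.25, adjusted p = 0.016, limma). *DAS1* had 67.7, 61.5 and 101 TPM at S5, against 98.4, 116 and 130 TPM at S3, and fell by 0.53 (SE 0.15, adjusted p = 0.021, limma). On the TPM scale the highest S5 library of *DAS1* lay just above the lowest S3 library, and on the normalized counts the groups did not overlap.

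*DAS2* moved the other way. It had 68.3, 61.5 and 119 TPM at S5, against 45.3, 47.3 and 57.8 TPM at S3, and rose by 0.74 (SE 0.19, adjusted p = 0.016, limma). *AOX1* (0.04, adjusted p = 0.92), *FLD1* (0.13, adjusted p = 0.31), *FDH1* (-0.16, adjusted p = 0.59) and *CTA1* (-0.25, adjusted p = 0.10) were not called by limma. The level of *AOX1* at S5 was 301, 220 and 614 TPM, so that its S5 libraries lay on both sides of its S3 libraries.

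Between S5 and S3, 1 of the 7 genes was higher, beside 18.0% of all genes tested, and 2 were lower, beside 20.8% of all genes. None passed the stricter threshold by limma, edgeR or DESeq2, and by limma 2.39% of all genes did. Wild-type S5 replicate 3 had the highest level of the 3 S5 libraries in 6 of the 7 genes, *CTA1* being the exception, and replicate 2 had the lowest in the same 6 genes. Without replicate 3, 4 genes were lower at S5 than at S3, namely *AOX1* (-0.33, adjusted p = 0.024), *AOX2* (-1.29, adjusted p = 2.8e-06, past the stricter threshold), *DAS1* (-0.70, adjusted p = 6.4e-05) and *FDH1* (-0.42, adjusted p = 0.0095), all from limma, and *DAS2* was still higher (0.50, adjusted p = 0.00054 from limma). Calls rose over all genes as well, to 1481 lower and 1386 higher of 5309 tested, compared with 1104 and 957 with replicate 3 kept.

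The calls between S5 and S3 also rested on other single libraries. That of *AOX2* was lost without wild-type S3 replicate 2 or 3 or wild-type S5 replicate 1 (adjusted p between 0.053 and 0.059 from limma), and *AOX2* passed the stricter threshold once wild-type S3 replicate 1 was left out (-1.03, with an adjusted p of 0.038 by limma), as it did without wild-type S5 replicate 3. That of *DAS1* was lost without wild-type S3 replicate 2 or 3 or wild-type S5 replicate 1 or 2 (0.071 to 0.082), and that of *DAS2* without wild-type S3 replicate 1 or 2 (0.056 and 0.064).

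Set against the first fast phase, none of the 7 genes was called at S5 by limma within the table of these 6 libraries in either direction, beside 1.34% of all genes higher and 2.20% lower, and 0.395% of all genes past the stricter threshold. At an unadjusted p under 0.05 from limma, 5 of the 7 differed, beside 1377 of all 5311 genes tested. Of the 7, edgeR called 0 and DESeq2 called *DAS2* and *FDH1* higher. DESeq2 called 260 genes higher and 318 lower in all. The limma fit of all 15 libraries called 5 of the 7, with *AOX1* (adjusted p = 0.016), *AOX2* (0.035), *DAS2* (0.019) and *FDH1* (0.0061) higher and *CTA1* (0.026) lower, beside 612 genes higher and 681 lower in all. The values at S5 against S1 were 0.90 for *AOX1* (SE 0.32, adjusted p = 0.13), 0.80 for *FDH1* (SE 0.24, adjusted p = 0.094) and 0.63 for *DAS2* (SE 0.20, adjusted p = 0.11, all from limma). Every S5 library of *AOX1*, *DAS2* and *FDH1* had a higher normalized count than every S1 library, but on the TPM scale wild-type S5 replicate 2 lay below the highest S1 library in each of them. *CTA1* was lower in every S5 library than in every S1 library on both scales, with at most 1044 TPM at S5 and at least 1094 TPM at S1. How many of all genes were separated in this way was not counted. *AOX2* had 0.62 and *CTA1* -0.41, with adjusted p of 0.18 and 0.17 from limma. Without wild-type S5 replicate 3 the log2 differences were smaller, with 0.53 for *AOX1*, 0.53 for *FDH1*, 0.39 for *DAS2* and 0.30 for *AOX2*. Same-numbered S1 and S5 libraries deviated together weakly, but the labels do not state that the numbers pair them. With the number as a block 240 genes were higher and 214 lower, compared with 71 and 117 without it, but 0 of the 7 genes were called in either fit. These counts over all genes rested on single libraries. By limma, they were 0 and 0 without wild-type S5 replicate 1 (866 genes at an unadjusted p under 0.05), 6 and 16 without S5 replicate 2, 253 and 235 without S5 replicate 3, 1 and 3 without S1 replicate 1 and 145 and 178 without S1 replicate 2.

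**Figure D4:**
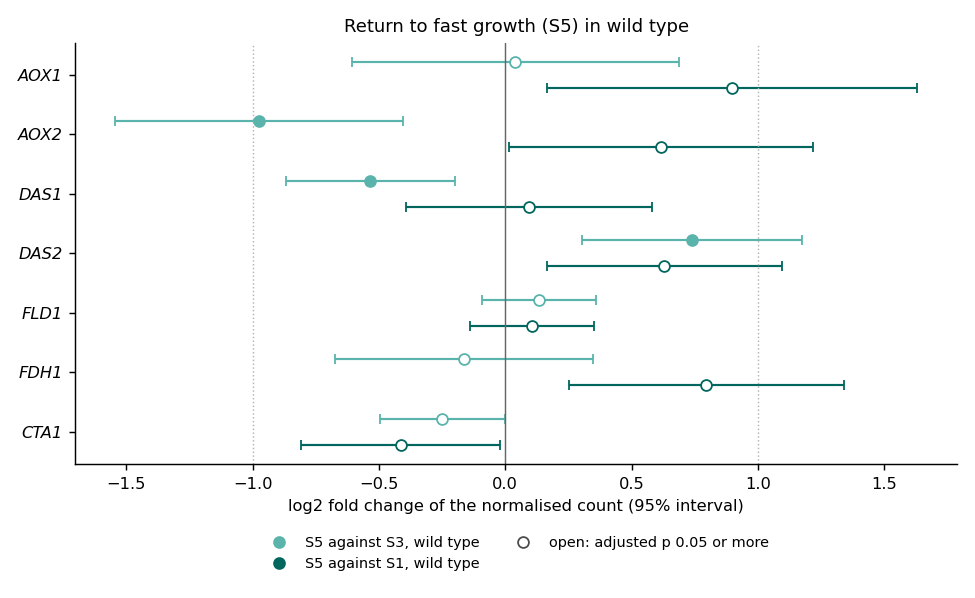
Log2 fold change of the normalized count in the wild type at S5 against S3 (light) and at S5 against S1 (dark) for each gene (x axis), with 95% intervals from limma and dotted lines at -1 and 1. Filled points have an adjusted p under 0.05. Only *AOX2*, *DAS1* and *DAS2* are filled, all at S5 against S3, and the interval of *AOX1* at S5 against S3 runs from -0.61 to 0.69.

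*AOX1* and *AOX2*, and likewise *DAS1* and *DAS2*, are close copies of each other with annotated coding lengths of 1992 bases for both alcohol oxidase genes and 2124 bases for both synthase genes. Reads that fit both copies of a pair were shared out between them by kallisto, so the value of a single copy is uncertain, while the sum of the pair does not depend on the sharing. The sum of *AOX1* and *AOX2* was 866, 755 and 699 TPM in *flo8Δ* at S1, against 336, 212 and 293 TPM in the wild type. That is a log2 difference of the summed normalized counts of 1.58, a 2.98-fold difference, with an exact 2-sided permutation p of 0.1, the smallest that 3 libraries against 3 can give. At S3 the same sum was 761, 741 and 720 TPM in *flo8Δ* and 515, 563 and 624 TPM in the wild type, a log2 difference of 0.33 without overlap (exact permutation p = 0.1).

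The sum of *DAS1* and *DAS2* changed direction between the growth rates. At S1 it was 239, 168 and 184 TPM in *flo8Δ*, against 153, 133 and 116 TPM in the wild type, a log2 difference of 0.64. At S3 it was 117, 112 and 112 TPM in *flo8Δ*, against 144, 163 and 188 TPM in the wild type, a log2 difference of -0.59. Neither comparison had overlapping groups (exact permutation p = 0.1 each). Between S3 and S1 the sum of the synthase genes differed by -0.89 in *flo8Δ* without overlap (exact permutation p = 0.1) and by 0.33 in the wild type with overlap (exact permutation p = 0.2). The sum of the oxidase genes differed by 1.07 in the wild type without overlap (exact permutation p = 0.1) and by -0.17 in *flo8Δ* with overlap (exact permutation p = 0.2).

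The share of *AOX1* within the oxidase pair differed between S3 and S1 and between strains in these libraries. This share depends on how kallisto divided the reads that fit both copies, and other pairs of genes were not compared. *AOX1* made up 83.2%, 84.5% and 82.8% of the oxidase pair in *flo8Δ* S1 and 74.8%, 73.4% and 72.4% in *flo8Δ* S3. In the wild type it made up 74.7%, 67.1% and 77.1% at S1, 62.1%, 61.8% and 62.5% at S3 and 76.0%, 76.3% and 78.1% at S5. At S3 the share of *AOX1* was therefore lower than at S1 in either strain, and at each growth rate it was higher in *flo8Δ* than in the wild type, without overlap in any of these 4 comparisons (exact permutation p of the log2 ratio = 0.1 each).

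*DAS1* made up between 45.5% and 50.5% of the synthase pair in all 6 *flo8Δ* libraries, and the log2 ratio within the pair differed by 0.088 between S3 and S1 there, with overlap (exact permutation p = 0.4). In the wild type its share was 57.0%, 65.5% and 50.5% at S1, 68.4%, 71.1% and 69.2% at S3 and 49.8%, 50.0% and 45.9% at S5. Wild-type S3 thus stood apart from the other samples, with a *DAS1* to *DAS2* ratio of 2.29 ± 0.148, against 0.961 ± 0.0530 in *flo8Δ* S3 and 0.947 ± 0.0846 in wild-type S5 (SD, n = 3 each). In wild-type S5 replicate 2 both genes were listed with exactly 1544 reads.

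**Figure D5:**
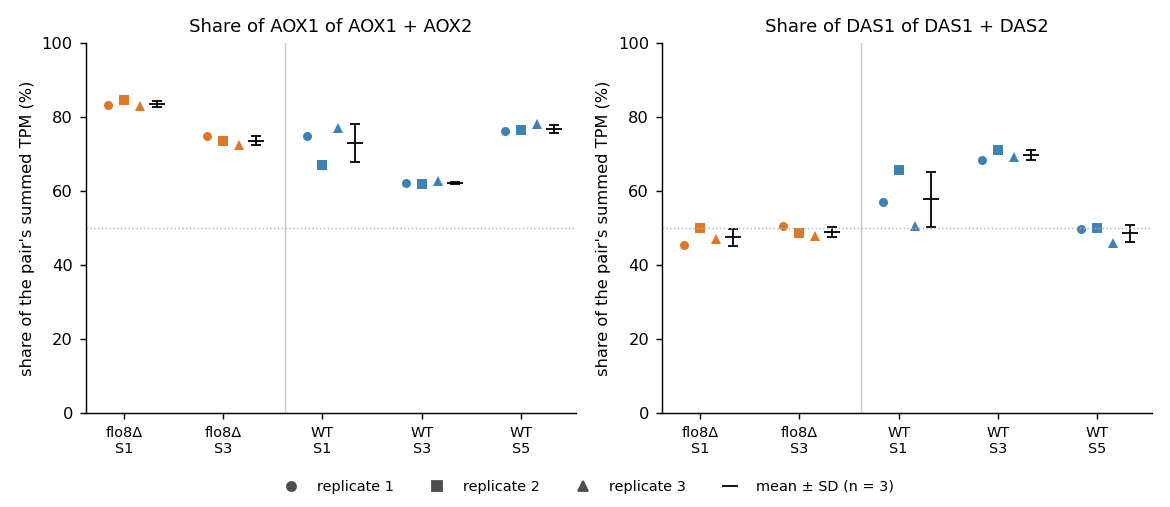
Share of the pair's summed TPM (y axis, percent, from 0 to 100) that came from *AOX1* (left) and *DAS1* (right) in each library, with *flo8Δ* samples in orange left of the wild-type samples in blue and the mean ± SD (n = 3) beside the points. The share of *AOX1* was highest in *flo8Δ* S1, up to 84.5%, and that of *DAS1* was highest in wild-type S3, up to 71.1%.

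*DAS2* differed from the other 6 genes in the size of its deposited per-library kallisto estimates, which were named as stranded and came to 5.06% to 6.11% of the reads of a library. For *DAS2* the estimates amounted to 9.71% of the reads over all libraries (7.33% to 12.9% in single libraries), whereas the share was between 0.359% and 1.19% for the other 6 genes and 2.79% for the median gene. After these estimated counts were taken off, *DAS2* kept all of its calls, and at S1 it then passed the stricter threshold in *flo8Δ* against the wild type. Whether reads from the other strand contribute to *DAS2* was not tested.

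Across the 15 libraries the 7 genes did not follow one pattern. The closest of them were *AOX2* and *FDH1*, with a Pearson r of 0.92 for log2(TPM + 1), and *DAS2* and *FLD1*, with 0.81. *AOX1* and *FDH1* had 0.72 and *AOX1* and *AOX2* had 0.65, while *DAS1* and *DAS2* had only 0.22. *CTA1* had values between -0.48 and 0.01 with the other 6. These values describe 15 libraries in 5 groups of 3 that share strain and growth rate, so they do not count as 15 independent points.

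Only the 3 genes with the highest r are given for each of the 7, so high values follow from the choice. *AOX2* ranked 4 among all genes for its likeness to *FDH1*, and *DAS2* ranked 4 for its likeness to *FLD1*. Among 5319 genes, the ones most like *AOX1* over the 15 libraries were PP7435_Chr2-0358 (r of 0.95), PP7435_Chr2-0288 and PP7435_Chr3-1139 (0.94 each), and those most like *AOX2* were PP7435_Chr2-1198 and PP7435_Chr4-0736 (0.96 each) and PP7435_Chr2-0200 (0.95). *FDH1* was closest to PP7435_Chr2-0527 (0.94), PP7435_Chr2-0075 and PP7435_Chr3-0234 (0.93 each), and *CTA1* to PP7435_Chr4-0063 and PP7435_Chr4-1675 (0.95 each) and PP7435_Chr2-0278 (0.94). *DAS2* was closest to PP7435_Chr1-0639 (0.95), PP7435_Chr3-0342 (0.88) and PP7435_Chr1-1549 (0.87), the last of which is *BSC1*, for a protein with low similarity to flocculins. Lower values were found for *DAS1*, led by PP7435_Chr3-0343 (0.85), PP7435_Chr3-0312 (0.82) and PP7435_Chr2-0937 (0.78), and for *FLD1*, led by PP7435_Chr3-0229 (0.84), PP7435_Chr1-0336 and PP7435_Chr3-0567 (0.82 each). The other identifiers listed here carry no gene names in the sources used here.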

How the data were processed

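The authors trimmed the reads, ran kallisto 0.43.1 against the CBS7435 transcripts and normalized the estimates with DESeq2 1.14.1 within each of 6 tables of 6 libraries and 5341 transcripts, per the labels and the methods. The deposited normalized counts are a signal per gene, and dividing by a single step per library, after a correction for effective length, gave whole reads in 100% of values within 0.01. The authors also deposited kallisto estimated counts and TPM per library, with fractions in place of TPM for wild-type S1 replicate 1. TPM used here were computed from the recovered reads and kallisto's effective lengths.

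Within a table, log2(normalized count + 1) was fitted with limma 3.58.1 (trended prior) in R 4.3.3 over genes that reached 10 normalized counts in 3 or more libraries. The interaction used 12 columns of the 2 tables that compare the strains. Alternatives used edgeR 4.0.16 and DESeq2 1.42.0 on the recovered reads, other filters, pseudocounts and scales, all 15 libraries in 1 fit, a replicate block and each library left out. Scripts were tested on simulated data. The 7 genes and all lists were chosen with earlier results of these data known. For each of the 7, the 3 genes with the highest Pearson r were named. Lists of related pathway genes had no identifiers that could be matched in the sources used here and were not analysed, nor were neighbouring genes or sequences. Same-numbered wild-type S1 and S5 libraries deviated together weakly (correlations 0.129 to 0.189), but the labels do not state a pairing. For S5 with S3 the correlations were 0.417, -0.165 and 0.565, and for S3 with S1 they lay between -0.034 and 0.091. Intervals of the fits cover the spread between these replicates. All 36 columns were used.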

Additional observations from a re-analysis of the deposited data

Results flagged for a closer look

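In 5 of the 7 genes the change from S1 to S3 differed between *flo8Δ* and the wild type by the interaction test. The value is the log2 change at S3 against S1 in *flo8Δ* less that in the wild type. Growth rate and time in culture cannot be told apart in it. The value was -1.20 for *AOX1*, with -0.36 in *flo8Δ* and 0.84 in the wild type. It was -1.46 for *DAS1*, with -0.85 in *flo8Δ* and 0.61 in the wild type. *AOX2* had -1.07, *DAS2* -0.81 and *FDH1* -0.52. In all 5 genes the change was lower in *flo8Δ*, a sign found in 2.99% of all genes tested. The log2 differences of *flo8Δ* against the wild type at S1 and S3 were 0.88 and -0.19 for *AOX2*, 0.97 and 0.16 for *DAS2* and 0.64 and 0.12 for *FDH1*. They were 1.77 and 0.57 for *AOX1* and 0.37 and -1.09 for *DAS1*. In the limma fit of all 15 libraries only *DAS1* kept its call. The calls of *DAS2* and *FDH1* were also lost when certain single libraries were left out. Groups of 3 libraries are too small for a test of single libraries that stand apart.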

How the results depend on the processing

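Of 826 log2 values of single genes under alternatives, 740 kept their direction and their side of the threshold, 52 lost a call, 23 gained one and 11 turned their sign. Unless stated, the cause of a change was not tested. For genes of the 7 called higher, log2(TPM + 1) gave 0 for S5 against S3 and 2 for *flo8Δ* against the wild type at S3; DESeq2 gave 2 for S5 against S1 and 1 for the interaction; and all 15 libraries in 1 fit gave 4 for S5 against S1, 0 for S3 against S1 in *flo8Δ* and 0 for *flo8Δ* at S3. For genes called lower, the 1 fit gave 1 for S5 against S1, 1 for *flo8Δ* at S1, 1 for *flo8Δ* at S3 and 1 for the interaction, DESeq2 gave 1 for *flo8Δ* at S1, and log2(TPM + 1) gave 1 for *flo8Δ* at S3 and 3 for the interaction. Past the stricter threshold, log2(TPM + 1) gave 1 for S5 against S3, the reads less the kallisto estimates gave 2 for *flo8Δ* at S1, and the 1 fit gave 1 for the interaction. On log2(TPM + 1) the sign turned for *AOX1* at S5 against S3 (-0.031), *DAS1* (-0.027) and *FLD1* (-0.014) at S5 against S1, and *FLD1* in *flo8Δ* against the wild type at S3 (0.036); the median of all genes on that scale was -0.12 at S5 against S1, 0.11 at S3 against S1 in *flo8Δ* and 0.14 in the interaction. Over all genes, that scale called 1488 higher and 407 lower at S3 against S1 in *flo8Δ* (782 and 889 on the normalized counts), 547 and 1147 at S5 against S3 (957 and 1104), 16 and 115 at S5 against S1 (71 and 117), 412 and 1016 in *flo8Δ* at S1 (801 and 831), 1606 and 1057 in *flo8Δ* at S3 (1371 and 1460) and 186 and 72 in the interaction (122 and 159), for which edgeR with TMM called 173 and 113.

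With each library left out in turn, the numbers of the 7 genes ran as follows. For S3 against S1 in the wild type, 0 to 1 were lower and 1 to 2 past the stricter threshold. For S5 against S3, 0 to 1 were higher, 0 to 4 lower and 0 to 1 past it. For S3 against S1 in *flo8Δ*, 0 to 1 were past it. For *flo8Δ* at S1, 0 to 1 were lower and 1 to 2 past it, and at S3 1 to 2 were higher and 1 to 2 lower. For the interaction, 0 to 1 were higher, 3 to 5 lower and 2 to 3 past it. Over all genes, the calls ran from 360 higher and 447 lower without wild-type S3 replicate 2 to 1099 and 1091 without wild-type S1 replicate 2 for S3 against S1 in the wild type, from 482 and 727 without wild-type S3 replicate 2 to 1386 and 1481 without wild-type S5 replicate 3 for S5 against S3, and from 419 and 446 without wild-type S1 replicate 1 to 975 and 988 without wild-type S1 replicate 3 for *flo8Δ* at S1. The sign turned for *FLD1* at S3 against S1 in the wild type (-0.092 to 0.012) and in *flo8Δ* against the wild type at S3 (-0.081 to 0.021), for *AOX1* (-0.33 to 0.33) and *FDH1* (-0.42 to 0.078) at S5 against S3, and for *DAS1* at S5 against S1 (-0.14 to 0.23). The sums of the pairs at S5 against S3 ranged from -0.62 to 0.018 for *AOX1* and *AOX2* and from -0.22 to 0.11 for *DAS1* and *DAS2*.

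With the replicate number as a block, *DAS1* was not called at S3 against S1 in the wild type (0.61, adjusted p = 0.052, limma) nor *FDH1* in the interaction (-0.52, adjusted p = 0.069, limma), and no other call of the 7 genes changed. Same-numbered S3 and S1 libraries did not deviate together (correlations -0.03 to 0.09 in the wild type and -0.27 to -0.10 in *flo8Δ*). For all genes, the block moved the interaction to 63 higher and 84 lower, compared with 122 and 159. The summed TPM of the 7 genes was 703 in *flo8Δ* S1, 602 in *flo8Δ* S3, 518 in wild-type S1, 469 in wild-type S3 and 538 in wild-type S5 in the kallisto files themselves, which hold a small part of the reads, and 4962 in *flo8Δ* S3 and 4432 in wild-type S3 with the full transcript length.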
